A study of Rattus norvegicus with 80 samples.

Results

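Lysosomal genes were followed in the lungs of rats that had received nanofibres through the trachea. The group was 37 genes chosen by symbol in the array's annotation, with the probes of a gene averaged: 10 proteases, 7 glycosidases, 4 lipid hydrolases, 2 activator or carrier proteins, 6 membrane proteins, 7 subunits of the proton pump and the transcription factor Tfeb. The list was drawn up with earlier results of these data known. Of the 37 genes, 36 had a probe, 50 probes in all, among 15924 genes measured. The glycosidase Naglu, which trims heparan sulphate, was matched to no probe and is not analysed here. The exposed groups had received cellulose nanofibrils, fine fibres of cellulose in 3 preparations named CNF1, CNF2 and CNF3, or MWCNT, multi-walled nanotubes made of nested carbon sheets, at 0.5, 1.0 or 2.0 mg/kg. The control groups had received the vehicle of the same material, water with preservatives. All rats were male Sprague-Dawley (Crl:CD[SD]), an outbred strain, bought at 7 weeks of age, and RNA came from the saline-perfused right lung 1, 3, 7, 30 or 90 days after a single instillation. Each of the 80 groups of material, dose and day had 1 array, so no group had a replicate. Although 4 rats per group are named in the protocol, the labels do not say whether RNA was pooled for an array. The protocol also named a dose of 1 mg/kg, whereas the arrays were labelled with the 3 doses used here.

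Lysosomes are acidic compartments in which cells break down what they take up or no longer need. Soluble hydrolases cut proteins, sugars and lipids, membrane proteins form the wall and move ions and cholesterol across it, and a proton pump, the vacuolar ATPase, keeps the inside acidic. In the lung, alveolar macrophages are rich in lysosomes and clear inhaled particles, and alveolar type 2 cells store surfactant in lysosome-related bodies. TFEB, a basic helix-loop-helix protein, switches on many lysosomal genes in human cells through a short DNA motif, the CLEAR element, built round CACGTG.

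That motif was sought in rat promoters because Tfeb is one of the members. A RefSeq promoter of build GRCr8, 250 bases before to 50 bases after the start, was matched for 29 of the 37 genes, the others being Ctsb, Hexa, Asah1, Ppt1, Psap, Atp6v1h, Atp6v1b2 and Atp6v1c1. The motif GTCACGTG, read on both strands, stood in 6 of these 29 (Ctsd, Gaa, Glb1, Lamp1, Mcoln1 and Atp6v0d1) and in 1.85% of all 33469 promoters of that length. The palindrome TCACGTGA, which overlaps it, stood in 4 (Ctsd, Lamp1, Mcoln1 and Atp6v0d1) and in 0.78% of all promoters. The 6 bases CACGTG that both contain stood in 7, those 6 and Cd63, and in 6.42% of all promoters. A match is a description of letters and not a binding site, and no match says only that the letters are not in this window. The 4 promoters with the palindrome are printed beside that of Ctss, which is 1 example with none of these motifs. Sequences run 5′ to 3′ on the strand of the gene, and capitals mark GTCACGTG or TCACGTGA on either strand. The windows were Ctsd at chr1:206968822-206969071 (minus strand), Mcoln1 at chr12:6358158-6358269 (plus strand), Lamp1 at chr16:83075064-83075313 (minus strand), Atp6v0d1 at chr19:50357249-50357498 (minus strand) and Ctss at chr2:185775146-185775395 (plus strand). Each window ends just before the start, except that of Mcoln1, which is shorter and runs past the start to the end of a match.
Ctsd: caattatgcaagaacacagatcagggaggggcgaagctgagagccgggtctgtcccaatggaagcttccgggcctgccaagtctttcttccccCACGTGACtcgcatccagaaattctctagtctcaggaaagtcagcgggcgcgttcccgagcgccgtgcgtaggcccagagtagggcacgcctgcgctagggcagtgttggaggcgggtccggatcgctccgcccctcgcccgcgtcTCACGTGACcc
Mcoln1: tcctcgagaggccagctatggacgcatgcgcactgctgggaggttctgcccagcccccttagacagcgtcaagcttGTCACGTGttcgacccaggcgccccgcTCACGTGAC
Lamp1: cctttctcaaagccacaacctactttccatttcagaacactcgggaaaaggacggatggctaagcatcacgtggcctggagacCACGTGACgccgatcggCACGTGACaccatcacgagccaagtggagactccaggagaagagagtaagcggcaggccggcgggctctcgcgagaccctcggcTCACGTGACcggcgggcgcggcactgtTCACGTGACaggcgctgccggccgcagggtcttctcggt
Atp6v0d1: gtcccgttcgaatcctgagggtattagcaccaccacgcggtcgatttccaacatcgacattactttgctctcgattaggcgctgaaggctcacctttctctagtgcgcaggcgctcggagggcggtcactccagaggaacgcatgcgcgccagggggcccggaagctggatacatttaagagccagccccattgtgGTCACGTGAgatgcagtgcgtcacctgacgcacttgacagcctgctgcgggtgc
Ctss: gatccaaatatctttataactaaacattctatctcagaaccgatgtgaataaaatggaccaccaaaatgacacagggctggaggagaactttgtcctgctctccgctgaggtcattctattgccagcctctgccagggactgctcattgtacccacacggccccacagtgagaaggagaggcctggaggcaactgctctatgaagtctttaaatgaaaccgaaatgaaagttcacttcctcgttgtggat

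The deposited values were taken as log2 values, since the sources used here do not give the scale. They lay around 0 for each probe (the median absolute value of a probe's median was 0.0177), so they were read as centred, and 0 says nothing of how strongly a gene was expressed. An effect below is a log2 difference ± SE between exposed and vehicle arrays of the same material and day, averaged over 5 days, with Benjamini-Hochberg adjusted p over all genes from limma and a threshold of 0.05. Without replicates, a test measures an effect against the scatter of arrays around the fitted model, which includes change with time. Of 15 spike-in and negative control spots, 1, 0, 0 and 0 passed the same test at 2.0 mg/kg after CNF1, CNF2, CNF3 and MWCNT (4, 7, 0 and 0 at an unadjusted p under 0.05), so the 2.0 mg/kg arrays carry the main account. The median difference of these spots from vehicle was still 0.622, 0.417, 0.374 and 0.167 for the same materials. Its part in the gene effects was not tested beyond a fit with 3 factors taken from the spots.

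Most lysosomal genes were higher after 2.0 mg/kg of every material. After CNF1, 23 of 36 members were higher and 1 was lower, after CNF2 23 and 0, after CNF3 21 and 0, and after MWCNT 20 and 0. The share of all genes called higher was 21.8%, 15.6%, 9.75% and 12.7% for the same 4 materials, and the share called lower 19.8%, 15.7%, 9.99% and 9.14%. Since the list was chosen with earlier results of these data known, these shares describe it and do not test it. They also stand beside the counts by role below. The median member effect was 0.41 after CNF1, 0.38 after CNF2, 0.37 after CNF3 and 0.35 after MWCNT, beside medians over all genes of 0.003, 0.037, 0.025 and 0.009. After CNF3 the count fell to 13 when the day 30 arrays were left out. The largest member effect was that of the protease Ctss after CNF2, 2.20-fold, and the protease Ctsb was 1.91-fold higher after CNF1. Because the RNA was from whole lung, more cells of a type and more RNA per cell cannot be told apart.

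The same 17 members were called higher after all 4 materials, against 5.71% of all genes. They were the proteases Ctsa, Ctsb, Ctsd, Ctss, Ctsz and Lgmn, the glycosidases Gusb and Gaa, the lipase Lipa, the carriers Psap and Npc2, the membrane proteins Cd63 and Scarb2, and the pump genes Atp6v1a, Atp6v1b2, Atp6v0c and Atp6ap1. Hexa, Mcoln1, Atp6v1c1 and Tfeb passed after 3 materials, Ppt1 and Atp6v1h after 2, and Ctsc, Ctsh and Gla after 1. The members called higher after none were Ctsl, Tpp1, Glb1, Man2b1, Asah1, Smpd1, Lamp1, Lamp2, Npc1 and Atp6v0d1. Of these, Asah1 was the one called lower, after CNF1. Some calls were lost in many of 13 alternative analyses: those of Mcoln1 after CNF3 in 10 and after CNF2 in 4, of Atp6v1c1 after CNF2 in 9 and after CNF3 in 6, of Hexa after CNF3 in 7 and after MWCNT in 6, and of Atp6v1h after CNF2 in 6. Ctsd after CNF2, Gaa after CNF3, Lipa after MWCNT and Ctsc after MWCNT lost theirs in 5 each, and Ctsa after CNF3 in 4.

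**Figure D1:**
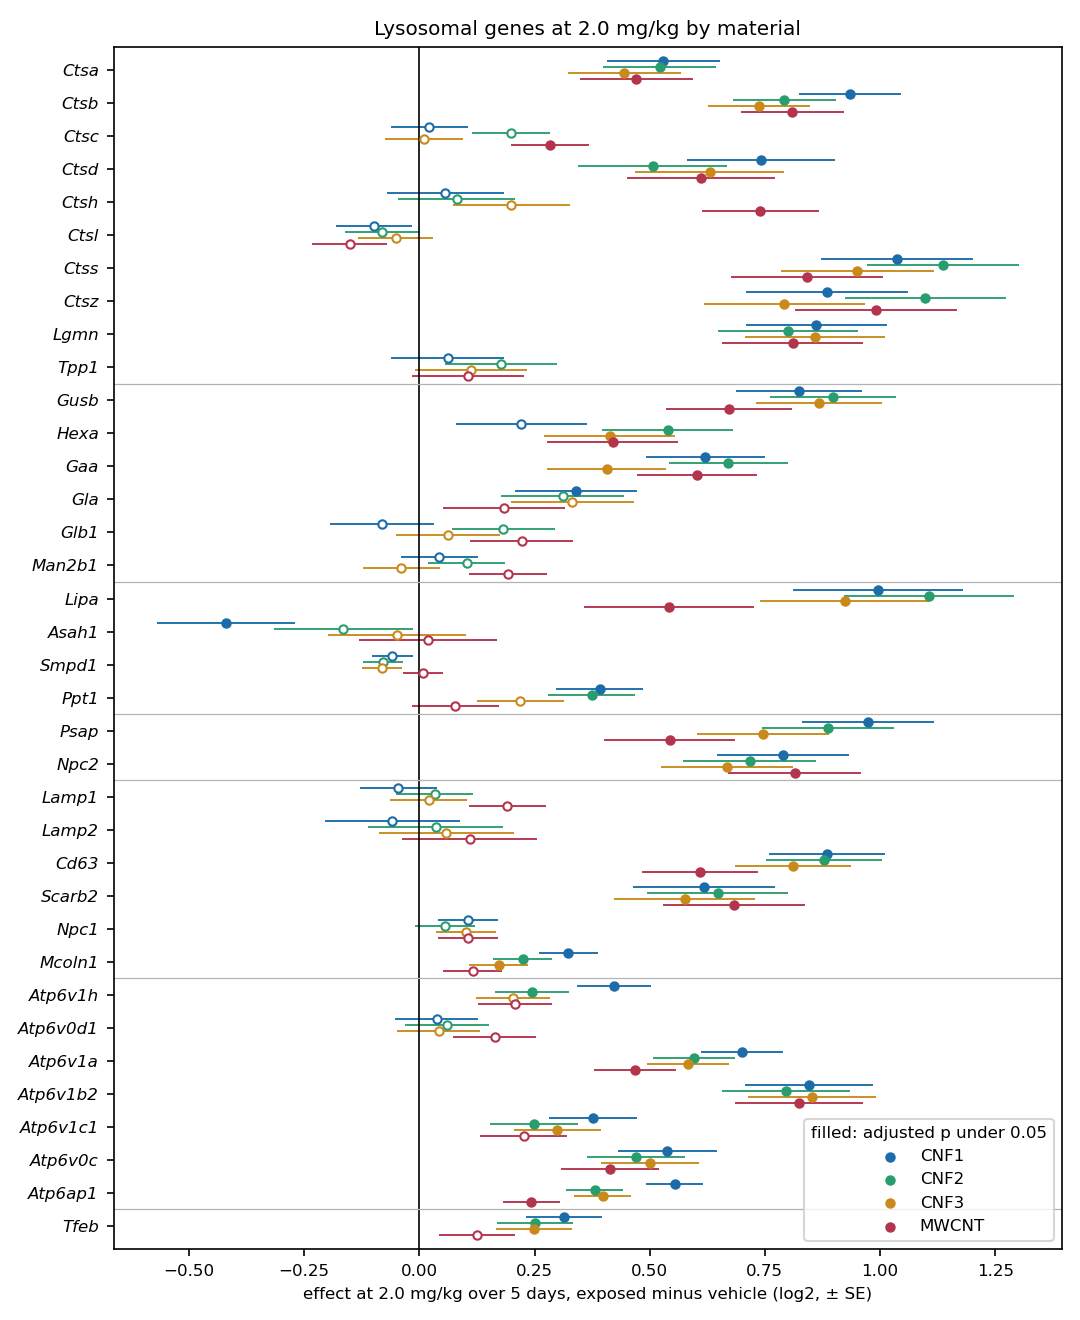
Effect of 2.0 mg/kg on each of the 36 lysosomal genes (x axis, log2 of exposed over vehicle averaged over 5 days, bars ± SE), by material (colour); filled points passed an adjusted p of 0.05. Ctsb, Ctss, Ctsz and Lgmn lie far right after all 4 materials, while Ctsl, Smpd1, Lamp1 and Lamp2 lie near 0.

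The proteases, which cut proteins inside the lysosome, split into those that rose after every material and those that did not. Of 10 proteases, 6 were called higher after each cellulose and 8 after MWCNT, with 0 lower. The cysteine protease Ctsb ran from 0.12 to 1.28 (median 0.41) over the 20 arrays of 2.0 mg/kg, against -0.51 to -0.17 (median -0.30) over the 20 vehicle arrays. All 20 exposed arrays lay above all vehicle arrays. After CNF1 the Ctsb values on days 1, 3, 7, 30 and 90 were 0.40, 1.06, 1.28, 0.36 and 0.30 in exposed lungs and -0.36, -0.28, -0.24, -0.22 and -0.17 in vehicle lungs. Days 3 and 7 were the high ones and the vehicle arrays moved little. Its effect was 0.93 ± 0.11 after CNF1, 0.79 ± 0.11 after CNF2, 0.74 ± 0.11 after CNF3 and 0.81 ± 0.11 after MWCNT (limma adjusted p 9.15e-09, 5.67e-07, 4.04e-06 and 6.96e-07).

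Ctss, cathepsin S, cuts the invariant chain of class II molecules in antigen-presenting cells. Its values ran from -0.29 to 1.35 (median 0.63) over the 20 arrays of 2.0 mg/kg, against -0.70 to -0.21 (median -0.42) over the 20 vehicle arrays. After CNF2 they were -0.03, 0.74, 0.76, 1.07 and 0.66 on days 1, 3, 7, 30 and 90 in exposed lungs, against -0.51, -0.64, -0.57, -0.44 and -0.33 in vehicle lungs. Each exposed array was above every vehicle array of that material, with the smallest gap on day 1. The effect was 1.04 ± 0.17 after CNF1, 1.14 ± 0.17 after CNF2, 0.95 ± 0.17 after CNF3 and 0.84 ± 0.17 after MWCNT (limma adjusted p 2.27e-06, 1.15e-06, 4.48e-05 and 2.00e-04). Ctsz, a carboxypeptidase, rose by 0.88, 1.10, 0.79 and 0.99 after the 4 materials in the same order, and Lgmn, the asparaginyl endopeptidase that matures cathepsins, by 0.86, 0.80, 0.86 and 0.81. The aspartic protease Ctsd rose by 0.74, 0.51, 0.63 and 0.61, and Ctsa, a carboxypeptidase that also protects beta-galactosidase, by 0.53, 0.52, 0.45 and 0.47.

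The 4 other proteases behaved otherwise. Ctsh, an aminopeptidase that takes part in the maturation of surfactant protein B, rose after MWCNT by 0.74 ± 0.13 (limma adjusted p 3.18e-05) and had effects of 0.06 ± 0.13, 0.08 ± 0.13 and 0.20 ± 0.13 after CNF1, CNF2 and CNF3, which did not pass. Ctsc, which activates the serine proteases of granulocytes, rose after MWCNT by 0.28 ± 0.08 (limma adjusted p 0.0119), with estimates of 0.02, 0.20 and 0.01 after the 3 celluloses. Ctsl, a cysteine endopeptidase close to Ctsb in function, had effects of -0.10, -0.08, -0.05 and -0.15, and Tpp1, which removes tripeptides from the ends of chains, 0.06, 0.18, 0.11 and 0.11. None of these 8 values passed.

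Among the glycosidases, which remove sugars from glycans and glycogen, 3 of 6 were called higher after each material and 0 lower. Gusb, beta-glucuronidase, ran from -0.09 to 1.22 (median 0.40) over the 20 arrays of 2.0 mg/kg, against -0.56 to -0.23 (median -0.40) over the 20 vehicle arrays. All 20 exposed arrays were above all vehicle arrays. After CNF3 Gusb was 0.09, 0.28, 0.45, 1.22 and 0.77 on days 1, 3, 7, 30 and 90 in exposed lungs and -0.28, -0.31, -0.25, -0.23 and -0.44 in vehicle lungs, with the highest array on day 30. Its effect was 0.82 ± 0.14 after CNF1, 0.90 ± 0.14 after CNF2, 0.87 ± 0.14 after CNF3 and 0.67 ± 0.14 after MWCNT (limma adjusted p 4.36e-06, 2.53e-06, 9.22e-06 and 3.18e-04).

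Gaa, the acid alpha-glucosidase that breaks down glycogen, ran from -0.17 to 1.09 (median 0.38) over the 20 arrays of 2.0 mg/kg, against -0.40 to 0.05 (median -0.22) over the 20 vehicle arrays. After MWCNT it was -0.01, 0.18, 0.33, 0.79 and 1.09 on the 5 days in exposed lungs and -0.15, -0.23, -0.32, 0.03 and 0.04 in vehicle lungs, so the exposed array of day 1 lay below the vehicle arrays of days 30 and 90. Its effect was 0.62 ± 0.13 after CNF1, 0.67 ± 0.13 after CNF2, 0.41 ± 0.13 after CNF3 and 0.60 ± 0.13 after MWCNT. Hexa, the alpha subunit of beta-hexosaminidase, rose after CNF2, CNF3 and MWCNT by 0.54, 0.41 and 0.42, and was 0.22 after CNF1, where it did not pass. Gla, alpha-galactosidase A, passed after CNF1 (0.34) and not after CNF2 (0.31), CNF3 (0.33) or MWCNT (0.18), and the CNF1 call was lost in 9 of 13 alternative analyses. Glb1, beta-galactosidase, had effects of -0.08, 0.18, 0.06 and 0.22. Man2b1, the lysosomal alpha-mannosidase, gave no call: its values ran from -0.28 to 0.43 (median -0.02) over the 20 arrays of 2.0 mg/kg, against -0.18 to 0.12 (median -0.05) over the 20 vehicle arrays. Its effect was 0.04 ± 0.08 after CNF1, 0.10 ± 0.08 after CNF2, -0.04 ± 0.08 after CNF3 and 0.19 ± 0.08 after MWCNT, and the groups overlapped.

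The 4 lipid hydrolases did not move together. Lipa, the acid lipase that splits cholesteryl esters and triglycerides, ran from -0.29 to 1.59 (median 0.82) over the 20 arrays of 2.0 mg/kg, against -0.41 to 0.02 (median -0.27) over the 20 vehicle arrays. After CNF3 Lipa was -0.22, 0.13, 0.95, 1.56 and 1.20 on days 1, 3, 7, 30 and 90 in exposed lungs and -0.29, -0.24, -0.17, -0.24 and -0.05 in vehicle lungs. The day 1 array lay among the vehicle arrays and the day 30 array was the highest. Its effect was 1.00 ± 0.19 after CNF1, 1.11 ± 0.19 after CNF2, 0.92 ± 0.19 after CNF3 and 0.54 ± 0.19 after MWCNT (limma adjusted p 2.56e-05, 1.25e-05, 3.11e-04 and 0.0289). Ppt1, the thioesterase that removes palmitate from proteins, rose after CNF1 by 0.39 ± 0.09 and after CNF2 by 0.37 ± 0.09, and had 0.22 ± 0.09 after CNF3 and 0.08 ± 0.09 after MWCNT. After CNF2 the Ppt1 arrays were -0.25, 0.22, 0.33, 0.64 and 0.49 in exposed lungs and -0.08, -0.17, -0.17, -0.05 and 0.02 in vehicle lungs, with day 1 the one exposed array below its vehicle.

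Asah1, acid ceramidase, fell by 0.42 ± 0.15 after CNF1 (limma adjusted p 0.0209), a call lost in 8 of 13 alternatives. By day, Asah1 differed from its vehicle by -1.03, -0.90, -0.29, 0.11 and 0.02 after CNF1 and by -0.67, -0.87, -0.04, 0.41 and 0.34 after CNF2, so the low values were those of days 1 and 3. Its effect after CNF2, CNF3 and MWCNT was -0.16, -0.05 and 0.02. Smpd1, acid sphingomyelinase, had effects of -0.06, -0.08, -0.08 and 0.01, none of which passed.

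Psap and Npc2 carry no catalytic activity of their own. Psap is cut into the saposins that present lipids to hydrolases, and Npc2 hands cholesterol to Npc1. Psap ran from -0.03 to 1.27 (median 0.47) over the 20 arrays of 2.0 mg/kg, against -0.49 to 0.05 (median -0.31) over the 20 vehicle arrays. After CNF1 it was 0.33, 0.91, 1.27, 0.46 and 0.25 on the 5 days in exposed lungs and -0.49, -0.48, -0.21, -0.41 and -0.06 in vehicle lungs, with no overlap and the highest array on day 7. Its effect was 0.97 ± 0.14 after CNF1, 0.89 ± 0.14 after CNF2, 0.75 ± 0.14 after CNF3 and 0.54 ± 0.14 after MWCNT. Npc2 ran from -0.20 to 1.10 (median 0.35) over the 20 arrays of 2.0 mg/kg, against -0.71 to -0.04 (median -0.38) over the 20 vehicle arrays. After MWCNT it was 0.26, 0.36, 0.64, 0.81 and 1.10 in exposed lungs and -0.05, -0.28, -0.21, -0.33 and -0.04 in vehicle lungs, higher at each later day. Its effect was 0.79 ± 0.14 after CNF1, 0.72 ± 0.14 after CNF2, 0.67 ± 0.14 after CNF3 and 0.81 ± 0.14 after MWCNT.

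Of 6 membrane proteins, 3 were called higher after each cellulose and 2 after MWCNT. Cd63, a tetraspanin of late endosomes and lysosomes, ran from -0.096 to 1.091 (median 0.475) over the 20 arrays of 2.0 mg/kg, against -0.545 to -0.100 (median -0.360) over the 20 vehicle arrays, with all 20 exposed arrays above all vehicle arrays. After CNF2 Cd63 was 0.26, 0.58, 0.66, 0.78 and 0.57 on the 5 days in exposed lungs and -0.36, -0.40, -0.40, -0.29 and -0.10 in vehicle lungs, and its effect was 0.89 ± 0.13 after CNF1, 0.88 ± 0.13 after CNF2, 0.81 ± 0.13 after CNF3 and 0.61 ± 0.13 after MWCNT. Scarb2, the receptor that brings glucocerebrosidase to lysosomes, ran from -0.29 to 0.77 (median 0.22) over the 20 arrays of 2.0 mg/kg, against -0.58 to -0.17 (median -0.36) over the 20 vehicle arrays. After MWCNT Scarb2 was -0.17, -0.07, 0.35, 0.49 and 0.62 in exposed lungs and -0.36, -0.58, -0.23, -0.45 and -0.57 in vehicle lungs, and its effect was 0.62 ± 0.15 after CNF1, 0.65 ± 0.15 after CNF2, 0.58 ± 0.15 after CNF3 and 0.68 ± 0.15 after MWCNT. Mcoln1, a cation channel that releases calcium from lysosomes, rose by 0.32, 0.22 and 0.17 after the 3 celluloses and was 0.12 after MWCNT, where it did not pass.

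The most abundant proteins of the lysosomal wall, Lamp1 and Lamp2, gave no call. Lamp1 had effects of -0.05, 0.03, 0.02 and 0.19. Lamp2 ran from -0.87 to 0.86 (median 0.23) over the 20 arrays of 2.0 mg/kg, against -0.09 to 0.42 (median 0.08) over the 20 vehicle arrays. After CNF1 Lamp2 was -0.87, 0.38, 0.17, 0.35 and 0.30 on the 5 days in exposed lungs and 0.19, 0.18, -0.06, 0.10 and 0.21 in vehicle lungs, so that day 1 was far below its vehicle and the other exposed arrays slightly above theirs. Its effect was -0.06 ± 0.15 after CNF1, 0.04 ± 0.15 after CNF2, 0.06 ± 0.15 after CNF3 and 0.11 ± 0.15 after MWCNT. Npc1, which moves cholesterol out of the lysosome, had effects of 0.11, 0.06, 0.10 and 0.10, but its 5 probes did not move together: after CNF1 one was higher by 0.89 and another fell by 0.39, so its average is uncertain.

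Of 7 pump genes, 6 were called higher after CNF1 and CNF2, 5 after CNF3 and 4 after MWCNT, with 0 lower. Atp6v1a, the catalytic subunit that binds ATP, ran from -0.05 to 0.96 (median 0.26) over the 20 arrays of 2.0 mg/kg, against -0.37 to -0.06 (median -0.24) over the 20 vehicle arrays, and all 20 exposed arrays were above all vehicle arrays. After CNF1 Atp6v1a was 0.16, 0.87, 0.96, 0.19 and -0.05 on the 5 days in exposed lungs and -0.24, -0.37, -0.19, -0.29 and -0.28 in vehicle lungs. Its effect was 0.70 ± 0.09 after CNF1, 0.60 ± 0.09 after CNF2, 0.58 ± 0.09 after CNF3 and 0.47 ± 0.09 after MWCNT (limma adjusted p 3.53e-08, 1.85e-06, 5.42e-06 and 1.37e-04).

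Atp6ap1, an accessory subunit needed for assembly of the pump, ran from 0.08 to 0.71 (median 0.22) over the 20 arrays of 2.0 mg/kg, against -0.26 to 0.05 (median -0.11) over the 20 vehicle arrays, again with all 20 exposed arrays above all vehicle arrays. After CNF1 Atp6ap1 was 0.45, 0.62, 0.71, 0.36 and 0.15 in exposed lungs and -0.11, -0.20, -0.01, -0.04 and -0.12 in vehicle lungs, and its effect was 0.55 ± 0.06 after CNF1, 0.38 ± 0.06 after CNF2, 0.40 ± 0.06 after CNF3 and 0.24 ± 0.06 after MWCNT. Atp6v1b2, the B subunit of the catalytic head, rose by 0.84, 0.80, 0.85 and 0.82 and Atp6v0c, which forms the proton-carrying ring, by 0.54, 0.47, 0.50 and 0.41. The C subunit Atp6v1c1 rose after the 3 celluloses by 0.38, 0.25 and 0.30 and was 0.23 after MWCNT, and the H subunit Atp6v1h rose after CNF1 and CNF2 by 0.42 and 0.24. Of the 2 probes of Atp6v1h, one was called higher after all 4 materials and the other after CNF1 alone. The subunit without a call was Atp6v0d1, which links the ring to the head: it ran from -0.48 to 0.66 (median 0.09) over the 20 arrays of 2.0 mg/kg, against -0.13 to 0.16 (median 0.01) over the 20 vehicle arrays. After CNF1 Atp6v0d1 was -0.48, 0.17, 0.11, 0.09 and 0.09 in exposed lungs and 0.01, -0.10, -0.06, -0.10 and 0.05 in vehicle lungs, low on day 1 alone, and its effect over the 5 days was 0.04 ± 0.09 after CNF1, 0.06 ± 0.09 after CNF2, 0.04 ± 0.09 after CNF3 and 0.16 ± 0.09 after MWCNT.

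Tfeb itself ran from -0.34 to 0.47 (median -0.01) over the 20 arrays of 2.0 mg/kg, against -0.57 to 0.15 (median -0.18) over the 20 vehicle arrays. After CNF1 it was -0.34, 0.01, 0.24, -0.03 and -0.07 on the 5 days in exposed lungs and -0.18, -0.51, -0.57, -0.34 and -0.16 in vehicle lungs, where the vehicle arrays also varied between days. It was called higher after the 3 celluloses and not after MWCNT, with effects of 0.31 ± 0.08 after CNF1, 0.25 ± 0.08 after CNF2, 0.25 ± 0.08 after CNF3 and 0.12 ± 0.08 after MWCNT (limma adjusted p 0.00192, 0.017, 0.027 and 0.318). The 2 probes of Tfeb differed: one gave 0.49, 0.40 and 0.37 after CNF1, CNF2 and CNF3, all called, and the other, with the larger variance, 0.13, 0.10 and 0.12, none called. The calls of Tfeb were lost in 4, 7 and 7 of 13 alternatives. Of the 4 genes whose printed promoter holds the palindrome, Ctsd was called higher after 4 materials, Mcoln1 after 3, and Lamp1 and Atp6v0d1 after none. Of the genes with GTCACGTG but not the palindrome, Gaa was called after 4 and Glb1 after 0. Ctss, 1 example with none of the motifs, was called after 4. Whether motif and response go together was not tested.

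**Figure D2:**
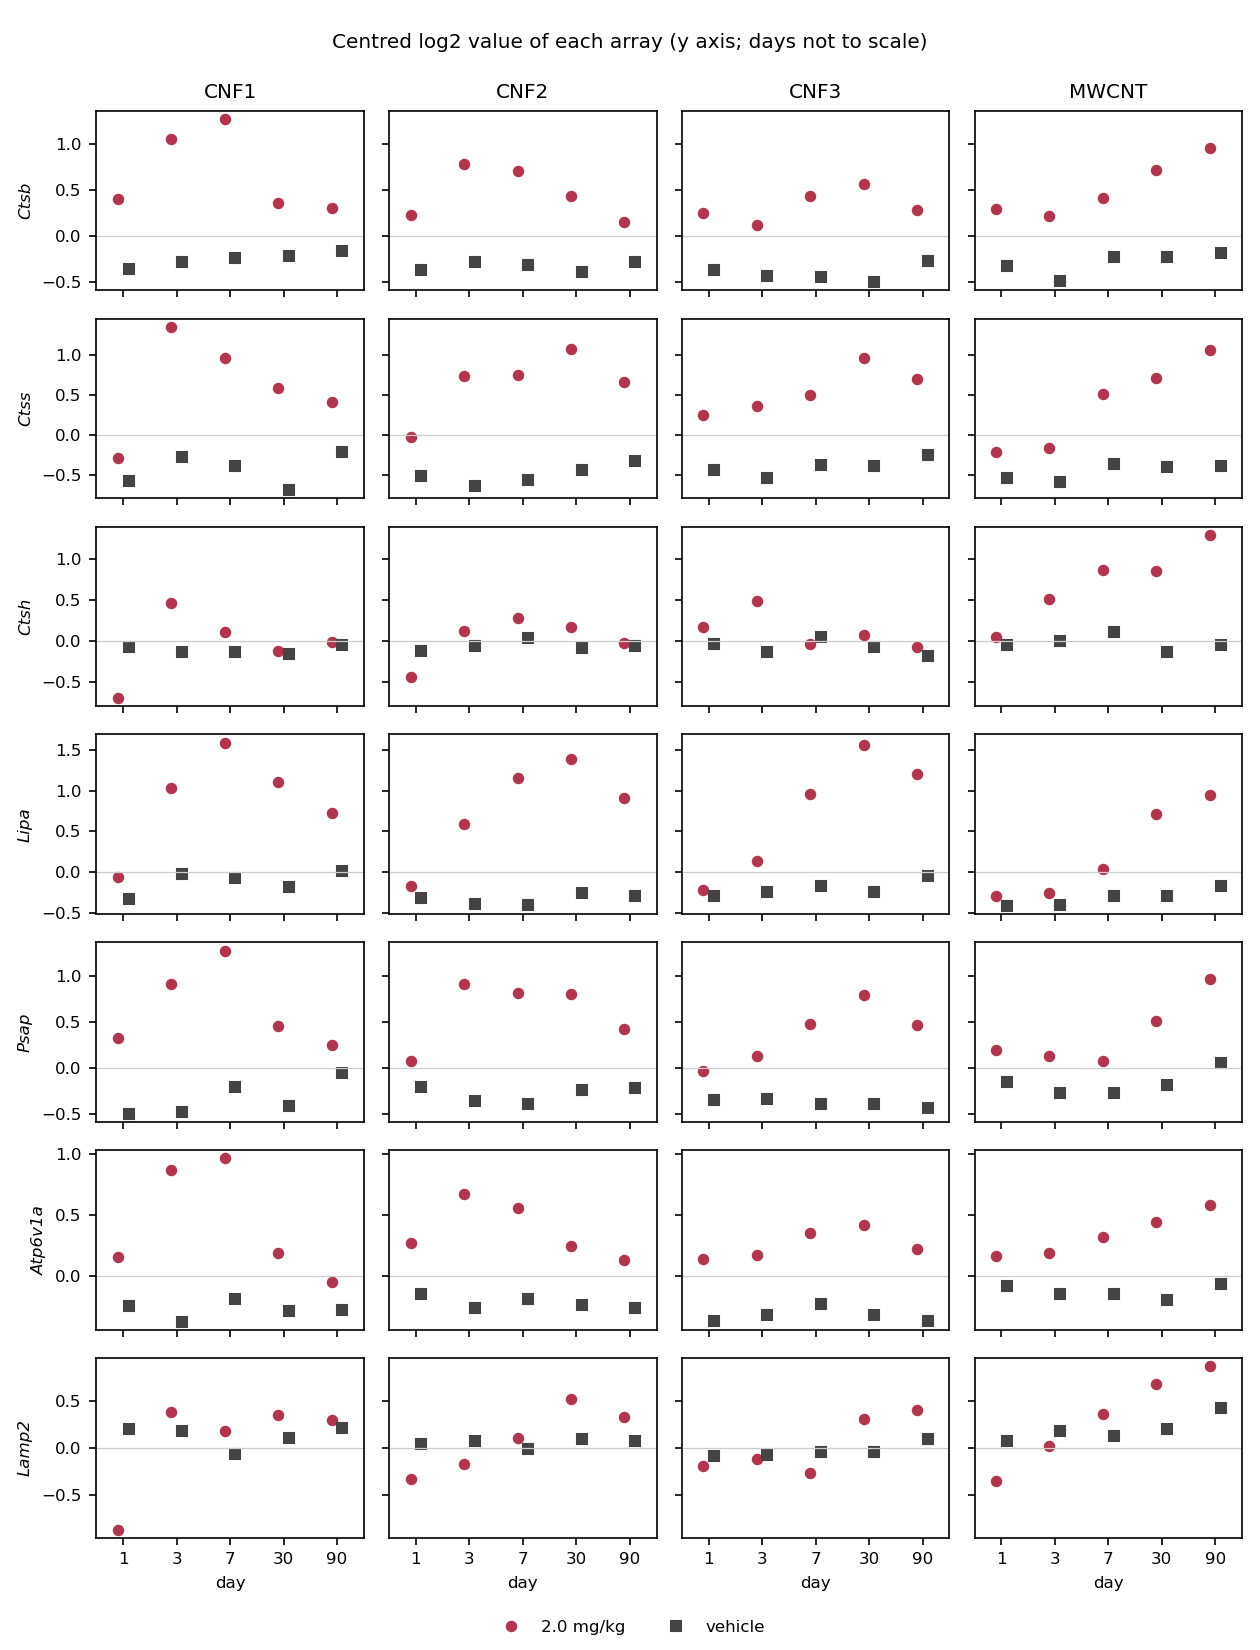
Centred log2 value of each array (y axis) by day (x axis, not to scale) for 7 lysosomal genes (rows) and 4 materials (columns); red circles are 2.0 mg/kg arrays and black squares are vehicle arrays, 1 array per point. The exposed points of Ctsb, Psap and Atp6v1a lie above the vehicle points on all days, and Lamp2 after CNF1 starts below its vehicle on day 1. Those of Ctsh after MWCNT lie slightly above their vehicle on day 1 and further above it from day 3 on.

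The exposed and vehicle arrays of a material did not overlap for 10 members after CNF1, 15 after CNF2, 14 after CNF3 and 15 after MWCNT, in each case with the exposed arrays higher. The same was true of 5.63%, 6.5%, 7% and 8.21% of all genes. Ctsb, Ctsz, Gusb, Psap, Cd63, Scarb2, Atp6v1a, Atp6v1b2 and Atp6ap1 were among them after all 4 materials. On all 5 days the exposed array was above its own vehicle for 15 members after CNF1, 17 after CNF2, 17 after CNF3 and 20 after MWCNT, against 15%, 17.5%, 18% and 18.6% of all genes. Ctsl after MWCNT was the only member below its own vehicle on all 5 days.

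The median difference of the members is given by day as a description. On days 1, 3, 7, 30 and 90 the median difference of the 36 members from their vehicle at 2.0 mg/kg was -0.04, 0.75, 0.77, 0.43 and 0.22 after CNF1. After CNF2 it was -0.03, 0.47, 0.54, 0.51 and 0.32. After CNF3 it was 0.09, 0.25, 0.39, 0.67 and 0.40, and after MWCNT 0.08, 0.21, 0.33, 0.54 and 0.61. Over all genes these medians lay between -0.12 and 0.13. After CNF1, 16 members had their largest difference on day 3 and 13 on day 7. After CNF2, 17 had it on day 30, after CNF3 30 had it on day 30, and after MWCNT 31 had it on day 90.

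**Figure D3:**
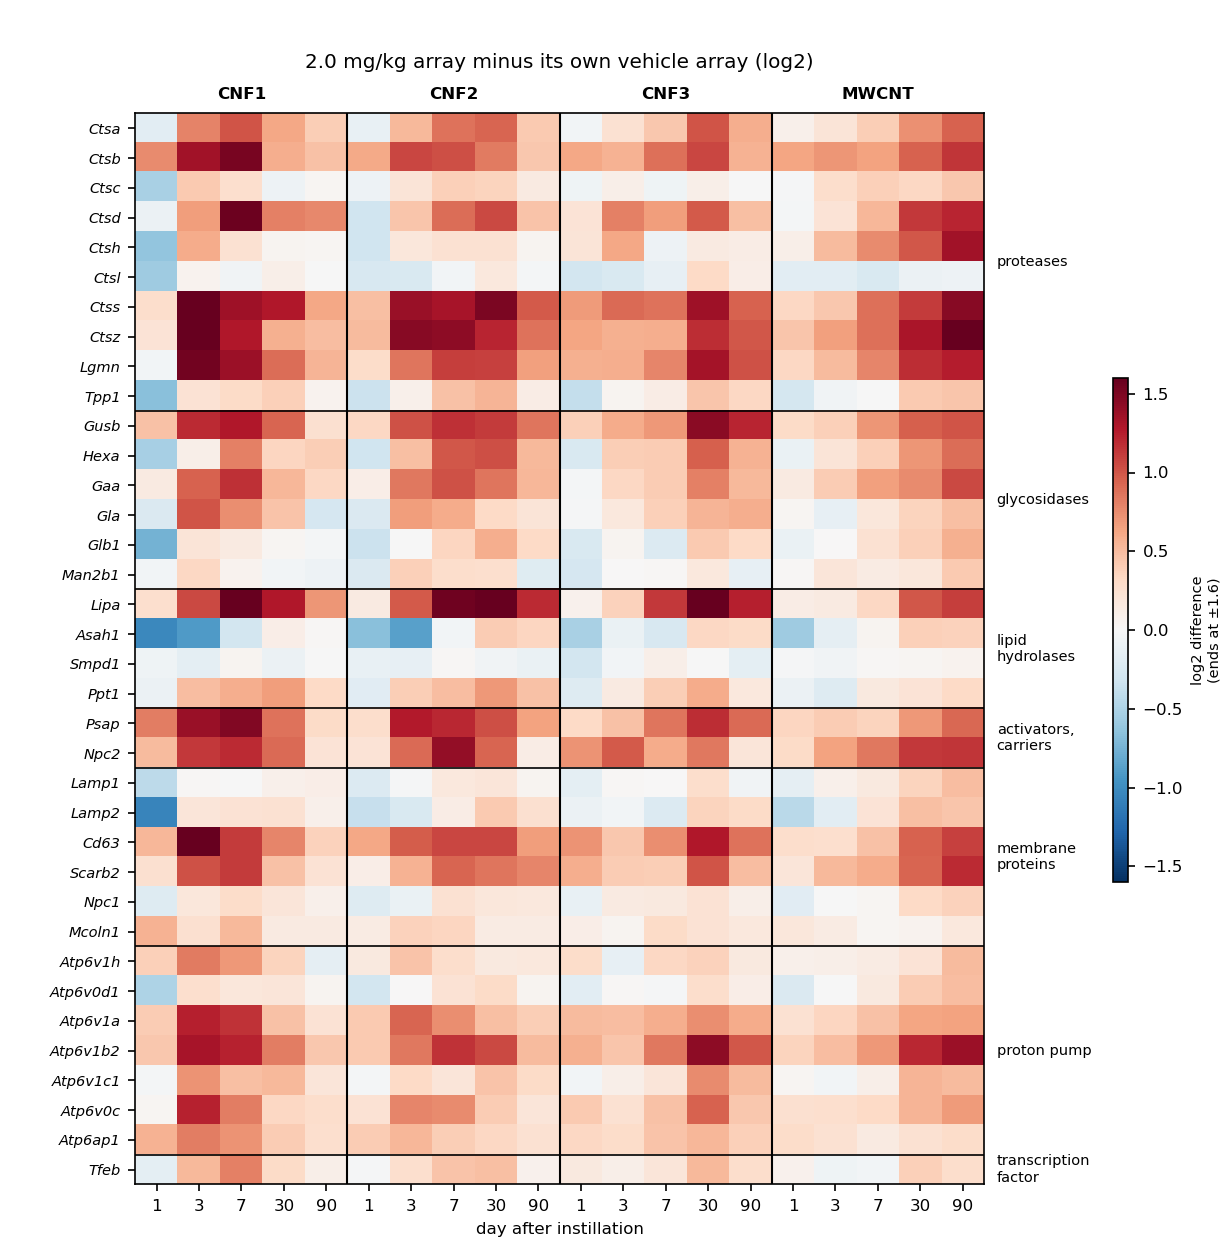
Log2 difference between the 2.0 mg/kg array and its own vehicle array for 36 lysosomal genes (rows, grouped by role) on 5 days after each material (columns); red is higher and blue lower in exposed lungs, and the colour scale ends at 1.6 on either side. The strongest red stands on days 3 and 7 after CNF1, on day 30 after CNF3 and on day 90 after MWCNT, and blue is mostly on day 1.

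By role, the activator and carrier pair had the largest median on most days, reaching 1.34 on day 7 after CNF1, 1.31 on day 7 after CNF2 and 1.01 on day 30 after CNF3. The 10 proteases reached 1.15 on day 7 after CNF1 and 1.18 on day 90 after MWCNT. The 6 glycosidases reached 0.77 on day 7 after CNF1, 0.79 on day 7 after CNF2, 0.67 on day 30 after CNF3 and 0.73 on day 90 after MWCNT. The pump, like the carriers, was above 0 on day 1 after all 4 materials, with medians of 0.38, 0.23, 0.33 and 0.25 after CNF1, CNF2, CNF3 and MWCNT, and it peaked at 0.83 on day 3 after CNF1 and 0.74 on day 30 after CNF3. The highest median of the 6 membrane proteins was 0.47, on day 90 after MWCNT, and that of the 4 lipid hydrolases 0.55, on day 30 after CNF2.

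**Figure D4:**
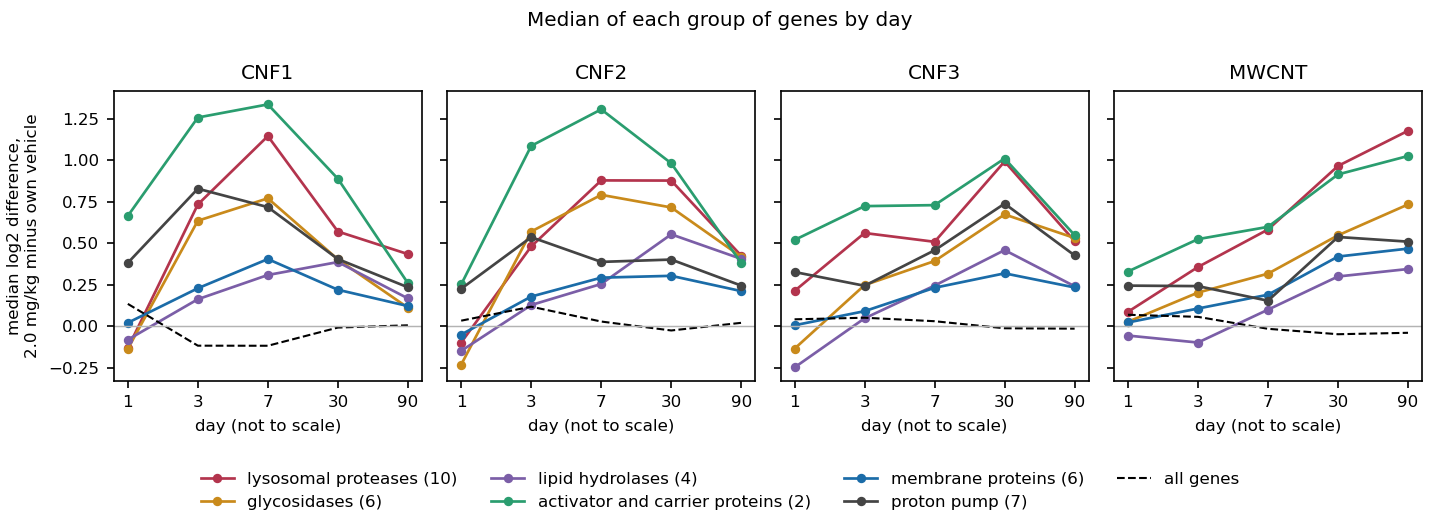
Median log2 difference between the 2.0 mg/kg array and its own vehicle (y axis) by day (x axis, not to scale) for 6 groups of lysosomal genes (numbers of genes in brackets) and for all genes (dashed), 1 panel per material. The proteases peak at 1.15 on day 7 after CNF1 and reach 1.18 on day 90 after MWCNT, while the dashed line stays near 0.

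When the 2.0 mg/kg effect was taken over days 1, 3 and 7 (early) and days 30 and 90 (late), 23 members were higher and 1 lower early after CNF1 (23% and 20.4% of all genes) and 12 were higher late (3.59%). After CNF2 the counts of members higher were 22 early (16%) and 18 late (4.53%). After CNF3 they were 15 early (8.23%) and 18 late (3.94%), and after MWCNT 9 early (6.4%) and 28 late (10.6%). The difference between late and early was tested itself, and no member passed for any material (limma, with 0.0691%, 0.0314%, 0.00628% and 0.1% of all genes passing). At an unadjusted p under 0.05, 1 member was higher and 7 were lower late after CNF1, 3 higher and 0 lower after CNF2, 8 and 0 after CNF3, and 27 and 0 after MWCNT. The median of late minus early was -0.12 after CNF1, 0.12 after CNF2, 0.25 after CNF3 and 0.48 after MWCNT. The smallest adjusted p were those of Atp6v1b2 (0.79 ± 0.20, limma adjusted p 0.0997) and Cd63 (0.70 ± 0.18, limma adjusted p 0.0997) after MWCNT. The same late-minus-early difference set between MWCNT and each cellulose, a contrast added after the values had been seen, also gave no call, with 22, 9 and 3 members higher at an unadjusted p under 0.05 for MWCNT over CNF1, CNF2 and CNF3 (0.0879%, 0% and 0.00628% of all genes passed).

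Day 1 stood apart from the later days, in a comparison chosen after the values had been seen. Averaged over the 4 materials at 2.0 mg/kg, 14 members were higher and 8 lower on day 1 (20.1% and 19.8% of all genes), and 32 were higher and 0 lower on days 3 to 90 (26.7% and 26.8%). The difference, later days minus day 1, was called higher for 23 members and lower for 0 (4.26% and 1.54% of all genes). The 8 lower on day 1, a share of the 36 near that of all genes, were Ctsl, Tpp1, Glb1, Asah1, Smpd1, Lamp1, Lamp2 and Atp6v0d1. None of them was called higher over the 5 days. That average includes day 1, so it is not a separate result. Asah1 was -0.59 ± 0.13 on day 1 and -0.04 ± 0.07 later, Lamp2 -0.34 ± 0.12 on day 1 and 0.13 ± 0.07 later, and Ctsl -0.33 ± 0.07 on day 1 and -0.04 ± 0.04 later. Tpp1, Glb1, Lamp1 and Atp6v0d1 were lower on day 1 and called higher on the later days. The members already higher on day 1 were Ctsb, Ctss, Ctsz, Lgmn, Gusb, Psap, Npc2, Cd63, Mcoln1 and 5 pump genes (Atp6v1h, Atp6v1a, Atp6v1b2, Atp6v0c and Atp6ap1). Ctsb was 0.68 ± 0.11 on day 1 and 0.85 ± 0.06 later, and Atp6ap1 0.40 ± 0.06 and 0.39 ± 0.03. Within single materials, 4 members passed after CNF1 (1.04% of all genes higher), and 0 after CNF2, CNF3 and MWCNT (0.0188%, 0.0816% and 0.00628% of all genes), where 9, 5 and 15 were higher at an unadjusted p under 0.05. After quantile normalization the count of 23 became 0, 10 in a fit without the lower doses, and 7 without day 30. The median difference of the 36 members was 0.356, and in these 3 analyses 0.373, 0.45 and 0.328, while the number of all genes called was 923, and 26 after quantile normalization.

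**Figure D5:**
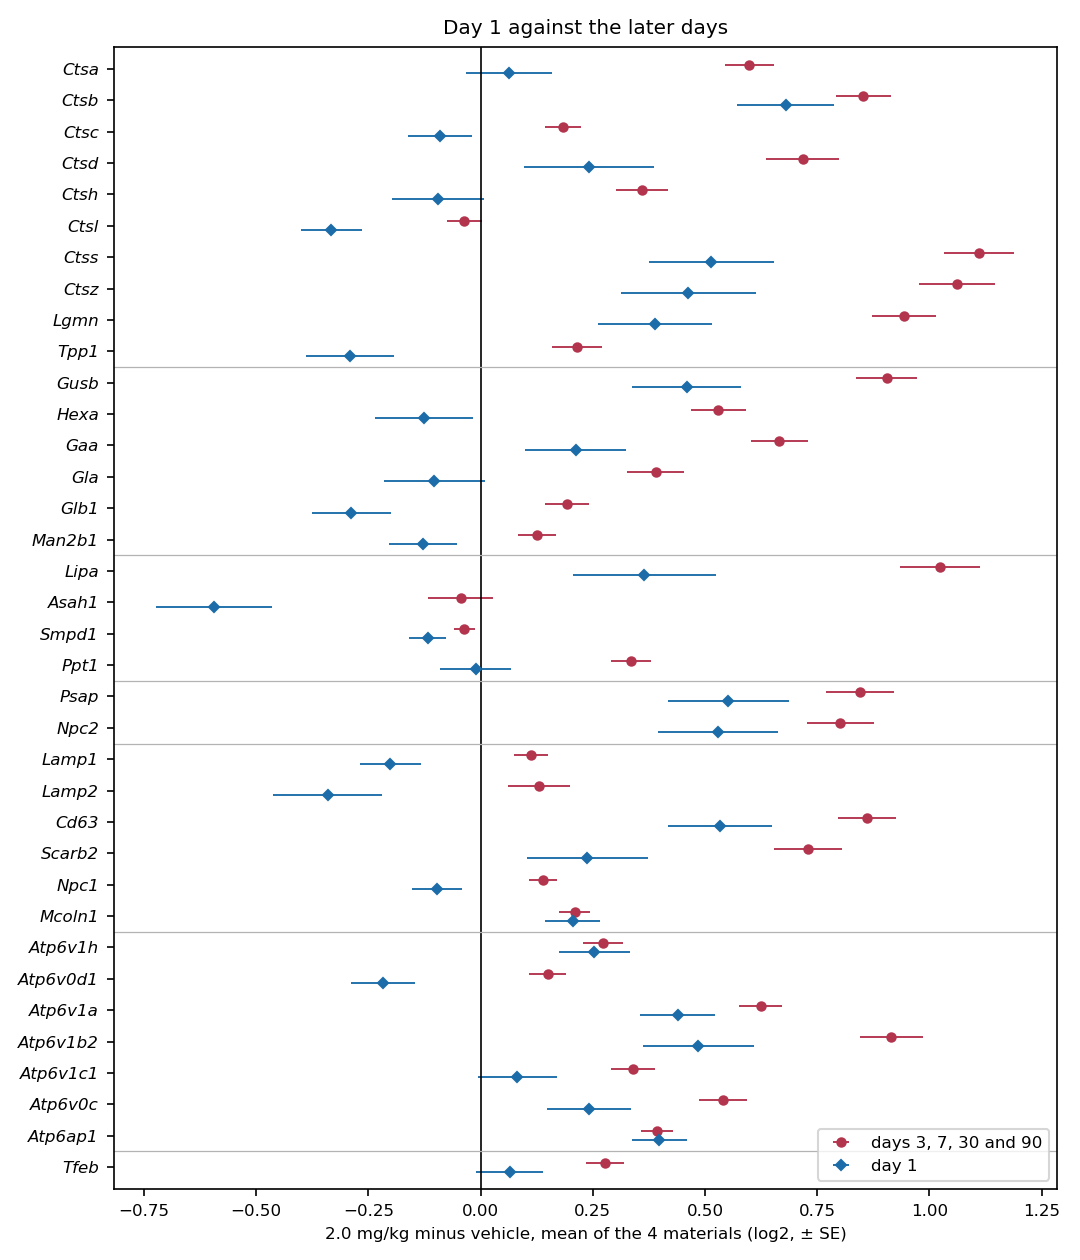
Difference between 2.0 mg/kg and vehicle arrays averaged over the 4 materials (x axis, log2, bars ± SE) on days 3, 7, 30 and 90 together (red circles) and on day 1 (blue diamonds) for 36 lysosomal genes. Asah1, Lamp2 and Ctsl lie left of 0 on day 1, and the red circles of Ctss, Ctsz and Lipa lie beyond 1.

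The materials were compared with each other at 2.0 mg/kg over the 5 days, in 6 pairs. Ctsh was higher after MWCNT than after CNF1 by 0.68 ± 0.18 (95% interval 0.323 to 1.044, limma adjusted p 0.0365), and Atp6ap1 differed by -0.31 ± 0.09 between MWCNT and CNF1 (-0.486 to -0.136, limma adjusted p 0.0496). These were the only 2 calls among the members, beside 1.63% of all genes in that pair, and no member passed for MWCNT against CNF2 (0.107% of all genes), MWCNT against CNF3 (0.484%), CNF2 against CNF1 (0.207%), CNF3 against CNF1 (0%) or CNF3 against CNF2 (0.151%). Neither call held after quantile normalization, with each array centred on its median, in a fit without the lower doses, or without day 1, 7 or 30. At an unadjusted p under 0.05, MWCNT gave 3 members higher and 4 lower than CNF1, 1 and 2 against CNF2, and 2 and 0 against CNF3, and the pairs of celluloses gave 0 and 0.

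After MWCNT Ctsh was 0.05, 0.52, 0.87, 0.86 and 1.29 on days 1, 3, 7, 30 and 90 in exposed lungs and -0.05, 0.01, 0.11, -0.13 and -0.05 in vehicle lungs. After CNF1 Ctsh was -0.69, 0.46, 0.11, -0.12 and -0.01 in exposed lungs and -0.06, -0.13, -0.13, -0.16 and -0.04 in vehicle lungs. The MWCNT arrays were high from day 3 on, and the CNF1 array of day 1 was the lowest. Ctsh after MWCNT was also above CNF2 by 0.66 (95% interval 0.299 to 1.020) and above CNF3 by 0.54 (0.180 to 0.901), with limma adjusted p of 0.178 and 0.228. Lipa after MWCNT less CNF2 was -0.56 (-1.091 to -0.039, limma adjusted p 0.634), and Ppt1 -0.30 (-0.565 to -0.028, limma adjusted p 0.609). The median SE of a member's difference between materials was 0.173.

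Change with dose was read as the slope over the vehicle and the 3 doses on each day, in log2 per mg/kg. The slopes use the 0.5 and 1.0 mg/kg arrays, where between 5 and 14 of 15 control spots passed against vehicle. They were not corrected for these spots. Over 20 sets of a material and a day, 92 of 720 slopes of members were called positive and 4 negative, and 58 were called in all after quantile normalization. After CNF1, 3 members had a positive slope and 3 a negative one on day 1 (2.66% and 3.61% of all genes), 23 and 1 on day 3 (15.4% and 12.4%), and 21 had a positive one on day 7 (3.33%). After CNF2, 6, 3 and 5 members had a positive slope on days 3, 7 and 30 (3.44%, 0.327% and 0.327% of all genes). After CNF3, 11 did on day 30 (0.86%), and after MWCNT 3 on day 30 (0.239%) and 17 on day 90 (2.07%). In the other 11 sets no member passed by limma, and at an unadjusted p under 0.05 between 1 and 15 members had a positive slope and 0 or 1 a negative one. Of all genes, slopes in those sets passed for 0.126% and 0.0126% on days 30 and 90 after CNF1, for 0.484% and 0.0628% on days 1 and 90 after CNF2, for 1.12%, 0.107%, 0.0314% and 0.138% on days 1, 3, 7 and 90 after CNF3, and for 0.144%, 0% and 0.157% on days 1, 3 and 7 after MWCNT.

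The steepest slopes by p on day 3 after CNF1 were those of Cd63 (0.82 ± 0.11, limma adjusted p 9.22e-07), Atp6v1a (0.64 ± 0.09), Ctsb (0.74 ± 0.12) and Atp6v0c (0.61 ± 0.10). On day 7 after CNF1 they were Ctsb (0.81 ± 0.12), Atp6v1a (0.60 ± 0.09), Lipa (0.89 ± 0.15) and Lgmn (0.75 ± 0.13). On day 30 after CNF3 they were Atp6v1b2 (0.70 ± 0.12), Lipa (0.83 ± 0.15), Cd63 (0.62 ± 0.11) and Gusb (0.74 ± 0.14). After CNF2 Lipa had the smallest p on day 7 (0.69 ± 0.15) and day 30 (0.79 ± 0.15), and Atp6v1a on day 3 (0.41 ± 0.09). On day 90 after MWCNT Ctsh led (0.68 ± 0.10, limma adjusted p 4.24e-05), followed by Atp6v1b2 (0.71 ± 0.12), Lgmn (0.70 ± 0.13) and Ctsb (0.62 ± 0.12). On day 1 after CNF1 the slopes of Glb1 (-0.41 ± 0.10) and Asah1 (-0.53 ± 0.13) were negative, and those of Atp6ap1 (0.31 ± 0.08) and Mcoln1 (0.27 ± 0.07) positive.

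Over the 5 days, the shares of members called higher lay nearer to those of all genes at the lower doses than at 2.0 mg/kg. At 0.5 mg/kg they were below the share of all genes after CNF1 and MWCNT and above it after CNF2 and CNF3. At 1.0 mg/kg they were above it after every material. At 0.5 mg/kg the members called higher and lower were 7 and 2 after CNF1 (36.1% and 11.4% of all genes), 16 and 2 after CNF2 (37.7% and 12.9%), 13 and 0 after CNF3 (23.8% and 5.54%) and 9 and 0 after MWCNT (30.4% and 7.44%). At 1.0 mg/kg they were 19 and 2 after CNF1 (20.6% and 16.2%), 14 and 1 after CNF2 (27.6% and 12.3%), 18 and 0 after CNF3 (18.7% and 6.09%) and 7 and 0 after MWCNT (8.46% and 7.54%). The median of all genes was 0.13 after CNF1, 0.14 after CNF2, 0.11 after CNF3 and 0.13 after MWCNT at 0.5 mg/kg. Of the 15 control spots, 10, 7, 5 and 10 passed at 0.5 mg/kg and 13, 14, 7 and 5 at 1.0 mg/kg after CNF1, CNF2, CNF3 and MWCNT. Their part in the counts at these doses was not tested.

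In the 20 vehicle arrays, 5 members differed between the vehicles of the 4 materials (Ctsd, Lgmn, Lamp2, Atp6v0d1 and Atp6v1a; 6.44% of all genes) and 8 between days (Ctsc, Ctsd, Ctsz, Lgmn, Hexa, Gaa, Asah1 and Npc2; 11.9%), by limma F tests. The mean of the MWCNT vehicle was the highest for Ctsd, at -0.07 beside -0.29, -0.30 and -0.38 for those of CNF1, CNF2 and CNF3. Ctsd means over the 4 vehicles on days 1, 3, 7, 30 and 90 were -0.38, -0.36, -0.27, -0.22 and -0.07, and those of Asah1 -0.04, 0.01, 0.06, 0.08 and 0.25. For all 8 the mean was highest on day 90.

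Of 74 other lysosomal genes measured in 6 lists, 36 were higher and 9 lower after CNF1, 37 and 8 after CNF2, 29 and 2 after CNF3, and 30 and 5 after MWCNT, with medians of 0.211, 0.26, 0.205 and 0.198. The shares of all genes in the same fit were 21.8%, 15.6%, 9.75% and 12.7% higher and 19.8%, 15.7%, 9.99% and 9.14% lower. Beside the member cathepsins, Ctsk, a collagen-degrading cysteine protease of osteoclasts and macrophages, rose far more, by 4.46, 4.48, 4.12 and 2.28 after the 4 materials. Cpq, a carboxypeptidase, fell by 0.59, 0.37, 0.33 and 0.32. Beside the member pump subunits, the d2 subunit Atp6v0d2, a partner form of Atp6v0d1, rose by 3.70, 4.51, 3.95 and 2.38, while Atp6v0d1 gave no call. The a3 subunit Tcirg1 rose by 0.85, 0.82, 0.58 and 0.58 and Atp6v0b by 0.57, 0.48, 0.48 and 0.40. Among membrane proteins Cd68, a macrophage glycoprotein of the Lamp family, rose by 1.64, 1.70, 1.45 and 1.29, whereas Lamp1 and Lamp2 did not pass. Tfec, a factor of the same family as Tfeb, rose by 1.64, 1.75, 1.39 and 0.98, and Igf2r, the mannose 6-phosphate receptor that sorts hydrolases, by 0.42, 0.28, 0.25 and 0.27. The glycosidase Fuca1 rose by 0.58, 0.49, 0.40 and 0.47 and Grn, the granulin precursor, by 0.83, 0.76, 0.70 and 0.74. Of 5 cystatins, inhibitors of cathepsins, 3 were higher after each cellulose and 2 after MWCNT: Cstb rose by 0.84, 0.80, 0.70 and 0.67 and Cst7 by 1.47, 1.64, 1.45 and 0.99.

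Markers of the cell types a lung holds were read in the same fit, where 21.8%, 15.6%, 9.75% and 12.7% of all genes were higher and 19.8%, 15.7%, 9.99% and 9.14% lower after CNF1, CNF2, CNF3 and MWCNT. Of 13 macrophage markers, 7 were higher and 2 lower after CNF1, 7 and 0 after CNF2, 6 and 0 after CNF3, and 8 and 0 after MWCNT. Their mean centred value ran from -0.37 to 0.76 over the 2.0 mg/kg arrays and from -0.63 to -0.15 over the vehicle arrays. C1qb, a complement gene of macrophages, rose by 0.85, 0.87, 0.59 and 0.83. The markers did not move together: 8, 11, 11 and 9 of the 13 estimates were above 0 after the 4 materials. Adgre1 and Csf1r had effects of -0.49 and -0.44 after CNF1. On days 1, 3, 7, 30 and 90 the median of the 13 differed from its vehicle by 0.03, 1.28, 0.31, 0.48 and 0.46 after CNF1 and by 0.35, 0.43, 0.73, 0.56 and 0.88 after MWCNT. Of 10 neutrophil markers, 2 were higher and 2 lower after CNF1 and CNF2, 2 and 0 after CNF3, and 5 and 1 after MWCNT, with a mean from -0.70 to 0.99 over exposed and -0.52 to 0.06 over vehicle arrays. The median neutrophil effect was -0.25, -0.06, -0.25 and 0.55 after the 4 materials. Of 9 alveolar type 2 markers, 3, 1, 0 and 4 were higher and 0, 2, 0 and 0 lower, with a mean from -0.20 to 0.43 over exposed and -0.24 to 0.09 over vehicle arrays. Alveolar type 1 markers were lower (7, 7, 3 and 6 of 7, mean -0.92 to 0.35 exposed and 0.06 to 0.42 vehicle), as were endothelial markers (7, 7, 5 and 7 of 10, mean -1.03 to 0.04 exposed and -0.08 to 0.25 vehicle), and lymphocyte markers after the celluloses (5, 4, 5 and 0 of 9 lower, 1 higher after MWCNT). Centred values hold no level, so no marker could be placed at or near 0 and the labelled tissue could not be checked by level. Of 10 cell cycle markers, 9 were higher after each material. The part of these cells in the lysosomal results was not tested.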

How the data were processed

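RNA of rat right lung was labelled with Cy3 and hybridised to 80 one-colour Agilent arrays, per the labels' protocols. The submitters' processing notes name Agilent Feature Extraction, version 12.0.3.1. The deposited values, 1 table of all arrays, were read as log2 values, already normalized by the authors and with each probe centred. The log base, the normalization and the centring are not given in the sources used here: base 2 was taken, and the centring was read from the values. The values hold no background, detection, slide or scan information, so no level, dim-probe filter or slide batch could be used, and the number of arrays limits the precision. Of 41103 probes, 91 were control spots. Of 41012 rat probes, 20932 had 1 gene symbol and 20080 none. Symbols were updated through accessions in RefSeq (17415 probes) or synonyms (396). Probes of a gene were averaged, giving 15924 genes. Of the members, 27 had 1 probe and 9 had more.

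All arrays entered 1 linear model per question in limma 3.58.1 (R 4.3.3, eBayes, no trend, no robust option), with a block for each material and day and a term for each material and dose (48 residual degrees of freedom). The period model had 44, the dose slope model 40 and the F tests of vehicle arrays 12. P-values were adjusted by Benjamini-Hochberg over 15924 genes for each contrast, at 0.05. Groups had 1 array each, so the days served in place of replicates, and p-values measure scatter about the model, which may be technical. The scripts were tested on simulated data. Counts were made with pandas 2.3.3 and numpy 2.4.6 under Python 3.11.15, and figures with matplotlib 3.10.9. Promoters were those of RefSeq, GRCr8, and coordinates are of that build.

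The members and the other gene lists were chosen with earlier results of these data known. Every member is named. Values of single arrays are given for the 2 members of each role with the smallest median p over the 4 materials at 2.0 mg/kg, for the member with the largest p where it had no call, and for Ctsh. Of the other lists, up to 3 genes by the same p are named. Of the cell type lists, C1qb is named for macrophages, with Adgre1 and Csf1r beside it, and no gene for the others. Alternatives were quantile normalization, centring each array on its median, 3 factors from the control spots, the probe of largest variance, a fit without the 0.5 and 1.0 mg/kg arrays, each day left out, a fold of at least 1.5 as well, a common control, each material fitted alone, day 7 counted as late, and dose as a rank. The contrasts of day 1 with later days and of late minus early between materials were added after the values had been seen.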

Additional observations from a re-analysis of the deposited data

Results flagged for a closer look

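Ctsh was higher after MWCNT than after CNF1 at 2.0 mg/kg, by 0.684 on the log2 scale, and Atp6ap1 differed by -0.311 in the same comparison, each past the limma test of the difference itself.

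The effect of 2.0 mg/kg was called different between later days and day 1, in a limma contrast added after the values had been seen. These calls depended on the processing. As the mean of the 4 materials, 23 members passed, but 0 after quantile normalization, 10 without the lower doses and 7 without day 30. After CNF1 alone, 4 passed, and between 0 and 17 in the alternatives. In the main fit no member passed after CNF2, CNF3 or MWCNT alone. After CNF1 the later days exceeded day 1 by 0.955 for Lgmn, 0.742 for Tpp1, 1.009 for Lamp2 and 0.58 for Atp6v0d1. As the mean of the 4 materials, the proteases exceeded day 1 by 0.535 (Ctsa), 0.274 (Ctsc), 0.455 (Ctsh), 0.297 (Ctsl), 0.597 (Ctss), 0.599 (Ctsz), 0.555 (Lgmn) and 0.505 (Tpp1). The glycosidases did so by 0.445 (Gusb), 0.656 (Hexa), 0.454 (Gaa), 0.493 (Gla), 0.48 (Glb1) and 0.255 (Man2b1), and the lipid hydrolases by 0.659 (Lipa), 0.549 (Asah1) and 0.345 (Ppt1). Membrane proteins did so by 0.313 (Lamp1), 0.47 (Lamp2), 0.491 (Scarb2) and 0.235 (Npc1), and pump subunits by 0.366 (Atp6v0d1) and 0.431 (Atp6v1b2).

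Spike-in and negative control spots, which the comparisons of genes do not use, differed between exposed and vehicle arrays. Of 15 spots, 10 passed at 0.5 mg/kg of CNF1, 13 at 1.0 mg/kg and 1 at 2.0 mg/kg. After CNF2, 7 passed at 0.5 mg/kg and 14 at 1.0 mg/kg, after CNF3 5 and 7 at these doses, and after MWCNT 10 and 5. Their part in the gene results was not tested beyond the fit with 3 factors taken from the spots.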

How the results depend on the processing

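No paired analysis was possible because each group of material, dose and day had 1 array, so no replicate numbers are shared. The block of material and day, which sets each exposed array against its own vehicle, is part of the model behind every effect. Of the 88 member effects called at 2.0 mg/kg, 48 were called under all 13 alternatives and 63 under all but the added fold. Atp6v1b2, Cd63, Ctsb, Ctss, Ctsz, Gusb, Lgmn and Npc2 were called after all 4 materials under every alternative. Over 1872 outcomes of members under alternatives, 1687 stayed on their side of the threshold, 44 newly passed and 141 no longer passed. No effect that was called in either analysis changed sign, while some effects not called did. With a fold of at least 1.5 as well, members called at 2.0 mg/kg became 14 after CNF1, 13 after CNF2, 11 after CNF3 and 12 after MWCNT, and 1 between MWCNT and CNF1, because small effects are left out. Without day 30, 13 were called after CNF3. Between MWCNT and CNF1, 0 were called after quantile normalization, with each array centred, without the lower doses, and without day 1, 7 or 30, and 1 with control-spot factors, with the probe of largest variance and without day 3. Between MWCNT and CNF3, 1 was called without day 1. Late minus early after CNF1 gave 4 calls without day 1 and 3 without day 3, all lower. After quantile normalization 58 dose slopes were called, against 96. Between vehicles, 2 were called after quantile normalization, with each array centred and with the probe of largest variance. Later days minus day 1 as the mean of the materials gave 0 calls after quantile normalization, 10 without the lower doses and 7 without day 30. For CNF1 alone the 4 calls became 0 after quantile normalization, with control-spot factors, without the lower doses and without day 3 or 30, 17 with each array centred or without day 90, 2 with the probe of largest variance and 1 without day 7. For MWCNT alone, 1 was called without day 3. Except where stated, the cause was not tested. With 1 array per group, changes on a single day have no replicate check.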

Other observations

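Of 10 lysosomal genes outside the 37 that act on lipids and nucleic acids, 5 were higher and 1 lower after CNF1 at 2.0 mg/kg, 6 and 0 after CNF2, 4 and 0 after CNF3, and 4 and 0 after MWCNT. Of all genes, 21.8%, 15.6%, 9.75% and 12.7% were higher and 19.8%, 15.7%, 9.99% and 9.14% lower. Rnaset2, a ribonuclease, rose by 0.54, 0.49, 0.44 and 0.77 after CNF1, CNF2, CNF3 and MWCNT, and Acp2, an acid phosphatase, by 0.36, 0.37, 0.21 and 0.23. Pla2g15, a lysosomal phospholipase A2, fell by 0.74 after CNF1, and was chosen after its value was seen. Of 18 other membrane proteins, 10, 12, 10 and 11 were higher and 3, 3, 0 and 1 lower. Laptm5, a lysosomal protein of blood cells, rose by 0.78, 0.63, 0.57 and 0.40, and Litaf by 0.68, 0.72, 0.55 and 0.51. Among 12 other glycosidases and sulfatases, 4, 4, 2 and 3 were higher and 2, 3, 0 and 2 lower. Hyal2, a hyaluronidase, fell by 0.45 after CNF2 and by 0.46 after MWCNT, rose by 0.28 after CNF3, and was 0.10 after CNF1, where it did not pass. Its difference between materials was not tested. Of 10 sorting and transcription genes, 6, 4, 4 and 3 were higher and 1, 1, 0 and 1 lower, among them Fnip2, a partner of the growth regulator folliculin, which rose by 0.80, 0.62, 0.56 and 0.37.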
